A study of Mus musculus with 23 samples.

Results

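Hippocampal messenger RNA of mice carrying both the App knock-in and loss of p16 was set against that of wild-type mice, gene by gene. The AppNLGF_p16KO group held 6 libraries (numbers 18 to 23, genotype APP<NLGF/NLGF>P16<KO/KO>) and the WT group 6 (numbers 1 to 6), 12 of the 23 libraries in all. The other groups are quoted where they help to place a value: AppNLGF (genotype APP<NLGF/NLGF>, 5 libraries, 13 to 17) and p16KO (genotype P16<KO/KO>, 6 libraries, 7 to 12). Each library was made from poly-A RNA of both hippocampi at about 5 months and is labelled as a sample of its own, so p-values measure the spread between these samples. App NLGF is a knock-in at the mouse gene, so its own promoter drives it. The strain background and the deleted part of Cdkn2a are not given in the sources used here, and library numbers run by genotype, so that handling order and genotype cannot be told apart.

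App encodes the amyloid precursor protein, and the NLGF alleles carry familial Alzheimer mutations that make mice form amyloid plaques without raised App expression. Microglia, the resident phagocytes of the brain, gather at plaques and switch on a set of genes that depends on the lipid receptor Trem2 and its adaptor Tyrobp. p16INK4a, 1 product of the Cdkn2a locus, inhibits the cyclin D kinases CDK4 and CDK6 and holds cells in arrest. It is best known as a marker of senescent cells and is scarce in young tissue.

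Total counts ran from 48577677 to 59486545 in AppNLGF_p16KO and from 54595296 to 58715671 in WT, and mitochondrial genes took 3.30% to 3.76% of them in AppNLGF_p16KO and 3.03% to 3.92% in WT. Granule cell, pyramidal cell and glial markers of the hippocampus were present in every library (Prox1 at 56.8 CPM or more in AppNLGF_p16KO and 82.8 CPM or more in WT). Choroid plexus, which lies against the hippocampus, varied widely within both groups, with Ttr from 232 to 2386 CPM in AppNLGF_p16KO and from 78.6 to 2964 CPM in WT. CPM is a gene's count relative to the library total after TMM scaling, the usual unit of normalised read counts.

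Library 21 of AppNLGF_p16KO stood apart from the others of its group and held genes that the hippocampus does not normally use. Hox genes, which pattern the hindbrain and spinal cord, summed to 131.7 CPM in library 21, against 0.0836 to 0.516 CPM in the other AppNLGF_p16KO libraries and 0.107 to 0.256 CPM in WT. Of 25 Hox genes in the table, 24 had reads in library 21, 7538 reads in all. Slc6a5, the glycine transporter of brainstem and spinal cord neurons, stood at 117.5 CPM there, against 0.0826 to 0.401 CPM in the other AppNLGF_p16KO libraries and 0.0713 to 0.613 CPM in WT. The glycine receptor gene Glra1 was at 7.35 CPM in library 21. Library 9 of p16KO had a smaller Hox sum of 4.61 CPM. These genes were chosen after their values were seen. When the submitters' outlier rule, a distance in principal components, was recomputed, library 21 was the 1 library past the limit (squared distance 12.4, limit 11.1), and p16KO library 7 was just inside it at 11.0. On the first principal component, which held 26.3% of the variance of the 23 libraries, 5 AppNLGF_p16KO libraries lay between -31.7 (library 21) and -6.45, but library 23 lay at 16.2. WT libraries lay between 2.66 and 21.5 except library 1, at -10.4. Counts are therefore given with and without library 21, and library 23 and WT library 1 are named where they matter.

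In all, 1857 of 19423 genes tested differed between AppNLGF_p16KO and WT at an adjusted p under 0.05 (9.56%), of which 1185 were higher (6.10%) and 672 lower (3.46%). Most of these differences were small, with a median log2 change of 0.30 among the higher and -0.30 among the lower, while 105 were higher and 24 lower by more than 2-fold. The median over all genes tested was 9.5e-04. Without library 21 the count was 456 (2.36%), with 368 higher (1.90%) and 88 lower (0.455%). An unadjusted p under 0.05 was found for 5403 genes. The count moved with single libraries, to 4456 without AppNLGF_p16KO 23, 2959 without WT 1, 545 without WT 5, 848 without WT 4, 875 without WT 2, 1108 without AppNLGF_p16KO 20 and 1149 without AppNLGF_p16KO 22. A set of 346 genes, 296 higher and 50 lower, was called in each of the 37 fits that tested them, and Cst7, Tyrobp, Trem2, Alad, Gfap, Sorl1 and Cd2ap are among these.

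Cdkn2a itself (chromosome 4, 89274471 to 89294653) did not set the libraries labelled AppNLGF_p16KO apart from WT. AppNLGF_p16KO libraries 18 to 23 held 0, 6, 6, 2, 8 and 2 reads (24 in all), against 6, 1, 3, 0, 5 and 2 in WT libraries 1 to 6 (17 in all). The mean was 0.0769 ± 0.0612 CPM in AppNLGF_p16KO and 0.0504 ± 0.0411 CPM in WT (SD, n = 6 each, p = 0.372, two-sided exact permutation test over 924 splits). The p16KO libraries, labelled with the same P16<KO/KO>, held 0 to 2 reads each (4 in all), and the AppNLGF libraries 2 to 9 (25 in all), so the total of AppNLGF_p16KO was nearer to those of AppNLGF and WT than to that of p16KO, a comparison given without a test. Counts per gene do not separate p16INK4a from p19ARF, which share exons. The label of AppNLGF_p16KO could not be checked on this gene, and every direction given here refers to libraries so labelled.

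The library labelled AppNLGF_p16KO 22 went against its group at genes near Cdkn2a, a pattern looked at after its values were seen. Of the 13 genes called within 10 Mb of Cdkn2a it was the AppNLGF_p16KO library nearest to the WT mean at 10 (76.9%), and at 17 of the 27 called within 20 Mb (63.0%), measured on log2(CPM + 0.01). Over all 1857 calls it was nearest at 128 (6.89%), and over the 17 called genes that microglia switch on near plaques at 0. The predicted genes Gm13453 and Gm20075, of chromosomes 2 and 13, showed it too. Gm13453 had 4 reads in library 22 and 19 to 77 in the other AppNLGF_p16KO libraries. It had 23 to 86 reads in each p16KO library, 0 to 5 in each of AppNLGF and 1 to 4 in each of WT. Gm20075 had 9 reads in library 22 and 55 to 101 in the other AppNLGF_p16KO libraries, beside 44 to 109 in the p16KO libraries, 3 to 11 in those of AppNLGF and 4 to 15 in those of WT. Without library 22 there were 1149 calls against WT (5.93%), 781 higher (4.03%) and 368 lower (1.90%). Several genes near Cdkn2a are given with and without library 22, and the cause was not tested.

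**Figure D1:**
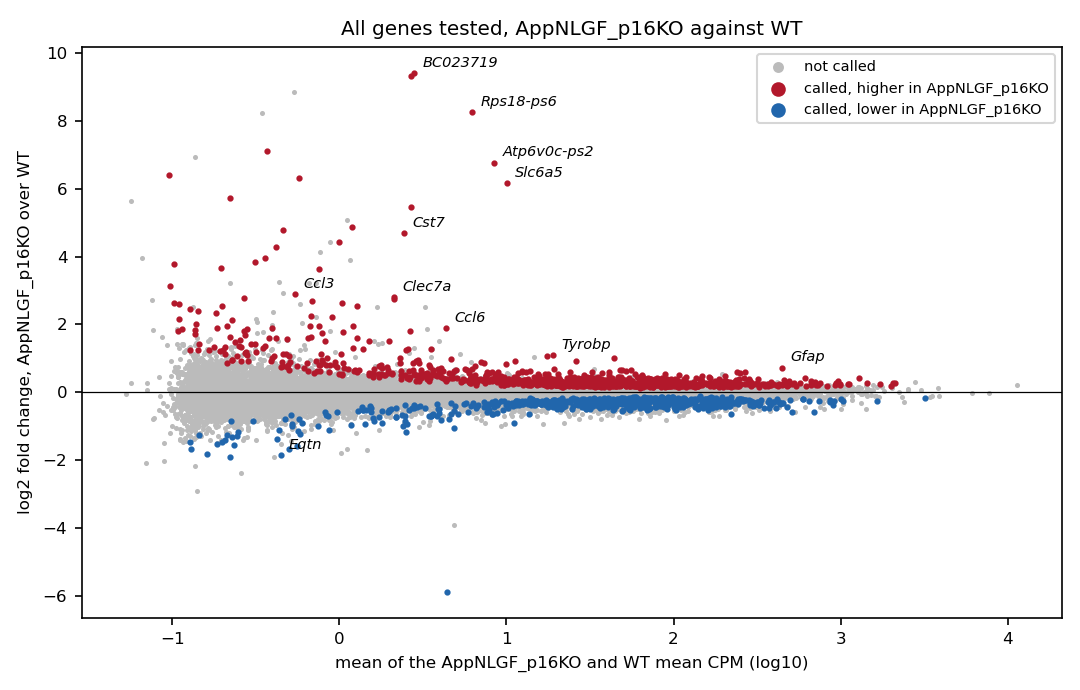
Log2 fold change of AppNLGF_p16KO over WT (vertical) against the log10 of the mean CPM of both groups (horizontal) for each of the 19423 genes tested, with called genes in colour. Most of the 1857 calls lie close to 0, the microglial genes Cst7, Clec7a, Ccl3 and Ccl6 stand above them, and several of the highest points are pseudogenes or copies (Rps18-ps6, Atp6v0c-ps2) or rest on library 21 (Slc6a5).

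The named genes with the smallest p were microglial and higher in AppNLGF_p16KO. Cst7, which encodes cystatin F, an inhibitor of lysosomal proteases (ENSMUSG00000068129, chromosome 2, 150570415 to 150578944, GRCm38), had 3.68, 4.43 and 6.58 CPM as lowest, median and highest values in AppNLGF_p16KO, against 0.0722, 0.166 and 0.366 CPM in WT. The groups did not overlap (log2 4.70 ± 0.33 SE, adjusted p = 6.84e-09). Clec7a, the gene of the fungal and plaque recognition receptor dectin-1 (chromosome 6, 129461591 to 129472779), had 3.03, 3.49 and 4.49 CPM in AppNLGF_p16KO and 0.358, 0.493 and 0.750 CPM in WT (log2 2.81 ± 0.23, adjusted p = 3.13e-08). The integrin gene Itgax had 1.45, 2.11 and 2.99 CPM in AppNLGF_p16KO and 0.239, 0.336 and 0.604 CPM in WT (log2 2.54 ± 0.25, adjusted p = 4.53e-07). Every AppNLGF_p16KO library was above every WT library for these genes. RNA came from whole tissue, so more microglia and more RNA per microglial cell cannot be told apart, here and for every cell type below.

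The receptor Trem2 and its signalling adaptor Tyrobp were about equally higher. Trem2 (chromosome 17, 48346401 to 48354147) had 20.6, 23.5 and 28.5 CPM in AppNLGF_p16KO and 10.1, 11.3 and 13.4 CPM in WT (log2 1.07 ± 0.09, adjusted p = 2.02e-08). Tyrobp (chromosome 7, 30413760 to 30417585) had 23.3, 24.5 and 30.0 CPM in AppNLGF_p16KO and 11.1, 12.0 and 13.5 CPM in WT (log2 1.10 ± 0.09, adjusted p = 1.56e-08). Neither gene's groups overlapped. Cd68, a lysosomal membrane protein of phagocytes, had 12.9, 15.0 and 16.7 CPM in AppNLGF_p16KO and 6.71, 7.96 and 8.60 CPM in WT (log2 0.94 ± 0.09, adjusted p = 1.86e-07). Without library 21 the log2 changes were 4.67 for Cst7, 2.75 for Clec7a, 2.45 for Itgax, 1.01 for Trem2, 1.05 for Tyrobp and 0.90 for Cd68, and all remained called (adjusted p up to 1.85e-06).

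**Figure D2:**
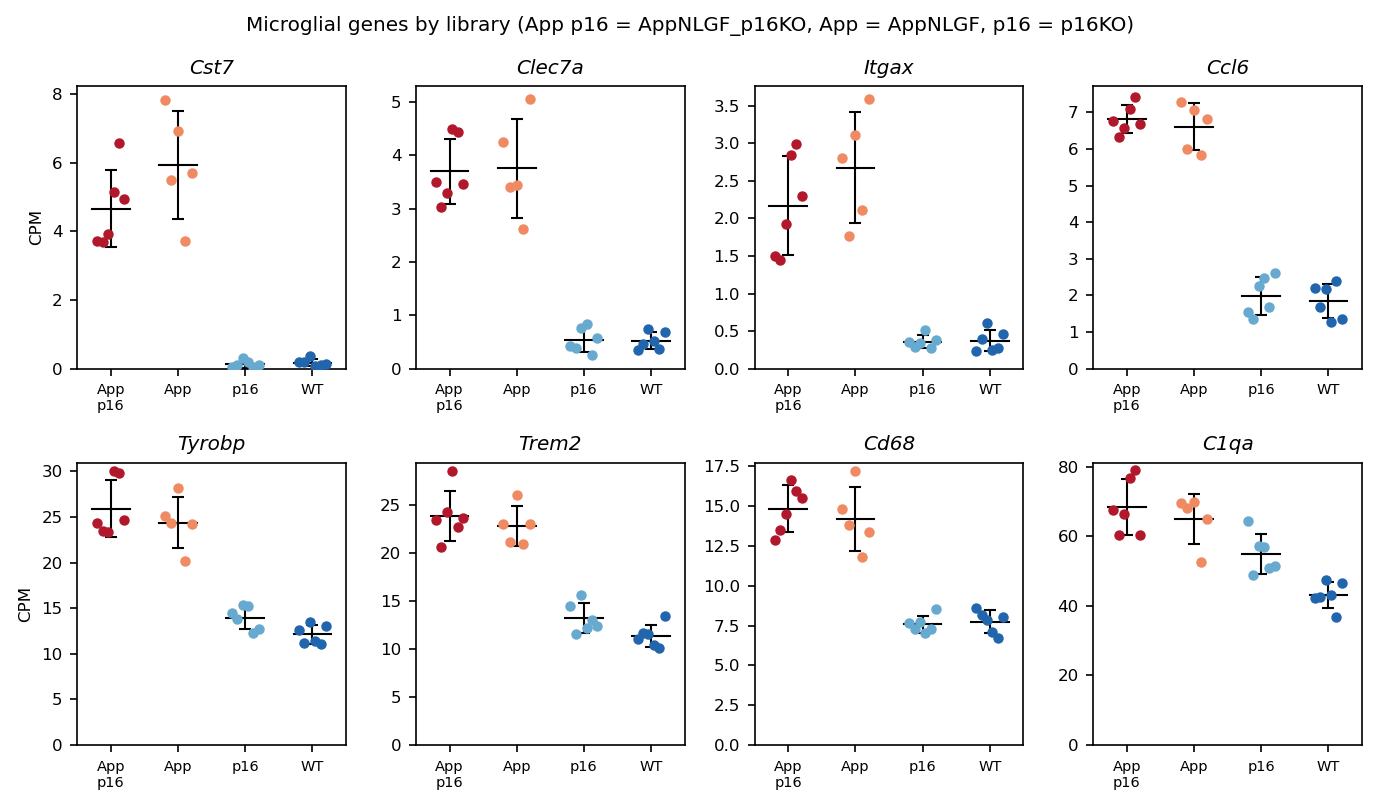
CPM of microglial genes in every library (points), with the group mean and SD, for AppNLGF_p16KO, AppNLGF, p16KO and WT from left to right. In each gene shown the AppNLGF_p16KO points lie above all the WT points, as with Cst7 at 3.68 to 6.58 CPM in AppNLGF_p16KO and 0.0722 to 0.366 CPM in WT.

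As a list, genes that microglia switch on near plaques had 17 higher and 0 lower among 30 tested, beside 6.10% higher over all genes. Their median log2 change was 0.65, and it was 0.63 with 14 called when library 21 was left out. Calls ran from 0.27 in Apoe, the lipid carrier gene, to 4.70 in Cst7. Apoe had 1368, 1604 and 1791 CPM in AppNLGF_p16KO and 1224, 1323 and 1375 CPM in WT, and the groups overlapped narrowly (log2 0.27 ± 0.06, adjusted p = 0.0118). The list also held members with no call, the lowest being the lipoprotein lipase gene Lpl at -0.38. The mean of the list relative to the WT mean was 0.75 to 1.04 on the log2 scale in all 6 AppNLGF_p16KO libraries, and -0.17 to 0.18 in the 6 WT libraries. Library 21 was the highest here, at 1.04, and library 23 was inside its group's range, at 0.95.

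Of 24 homeostatic microglial genes, those that microglia use at rest, 10 were higher and 0 lower, beside 6.10% higher over all genes, with a median log2 change of 0.31 (7 higher without library 21). Aif1, the gene of the microglial stain IBA1 (chromosome 17, 35170991 to 35176068), had 7.01, 7.52 and 11.9 CPM in AppNLGF_p16KO and 4.02, 4.65 and 6.01 CPM in WT (log2 0.78 ± 0.14, adjusted p = 0.00221). The groups did not overlap. The transcription factor gene Irf8 (log2 0.56 ± 0.11, adjusted p = 0.00446) and Olfml3 (log2 0.46 ± 0.10, adjusted p = 0.00670) were called too. Mertk, an engulfment receptor gene, was the lowest member at -0.20, without a call.

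Among chemokines and cytokines, 4 of 18 tested were higher and 0 lower, beside 6.10% higher over all genes. Without library 21 the count was 3, beside 1.90% higher over all genes. Ccl6 had 6.34, 6.72 and 7.41 CPM in AppNLGF_p16KO and 1.26, 1.94 and 2.39 CPM in WT (log2 1.88 ± 0.16, adjusted p = 3.32e-08). Ccl3, scarcer, had 0.702, 0.831 and 1.44 CPM in AppNLGF_p16KO and 0.0934, 0.109 and 0.221 CPM in WT (log2 2.89 ± 0.35, adjusted p = 2.73e-05). Its neighbour Ccl4 rose by log2 2.14 ± 0.37 (adjusted p = 0.00203). All 3 kept groups apart, whereas Cxcl14, an abundant chemokine gene of other cells, overlapped and lost its call without library 21 (log2 0.20, adjusted p = 0.130).

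Complement and receptor genes of the innate immune system followed. Complement had 7 higher and 0 lower of 20, beside 6.10% higher over all genes (median log2 0.18). Calls ran from 0.43 to 1.01 in C2. C1qa, a subunit of the initiating complex that tags synapses and debris, had 60.3, 66.9 and 79.0 CPM in AppNLGF_p16KO and 36.9, 42.8 and 47.3 CPM in WT (log2 0.67 ± 0.08, adjusted p = 3.71e-05), without overlap. Its partners C1qb (log2 0.63 ± 0.10) and C1qc (log2 0.64 ± 0.10) were close to it. Of Fc and Toll-like receptor genes 6 of 20 were higher and 0 lower (median log2 0.34), among them Fcer1g, the signalling chain of Fc receptors (log2 0.58 ± 0.10, adjusted p = 0.00205), and Cd14, which presents lipopolysaccharide to TLR4 (log2 0.93 ± 0.20, adjusted p = 0.00747). Without library 21 complement had 6 and the receptors 6 calls, beside 1.90% higher over all genes. Beyond the lists, the small GTPase gene Arl11 (log2 1.61 ± 0.19, adjusted p = 2.06e-05), the NADPH oxidase subunit gene Cyba (log2 0.69 ± 0.09, adjusted p = 7.34e-05) and the lysosomal peptide transporter gene Slc15a3 (log2 0.94 ± 0.13, adjusted p = 2.14e-04) were among the 15 higher genes with the smallest p.

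Interferon-induced genes gave no call. Of 33 tested, 0 were called by edgeR or by DESeq2, 4 had an unadjusted p under 0.05, and the median log2 change was -0.09. Ifit1 was the lowest at -0.59. Antigen presentation genes had 5 higher and 0 lower of 20, beside 6.10% higher over all genes (median log2 0.19). Without library 21 there were 2, beside 1.90% higher over all genes. Tap1, the peptide transporter of the MHC class I pathway, had log2 0.41 ± 0.10 (adjusted p = 0.0139), and the immunoproteasome gene Psmb8 0.47 ± 0.12 (adjusted p = 0.0167, 0.0588 without library 21). Both lie between 20 and 40 Mb of chromosome 17, a stretch rich in calls that is described below, as does the called member H2-D1. Macrophages of the vessel walls, which share many microglial genes, had 0 of 11 markers called by edgeR or by DESeq2 and 0 with an unadjusted p under 0.05 (summed CPM 19.9 to 24.6 in AppNLGF_p16KO and 17.7 to 30.5 in WT). Blood cell genes had 0 of 11 called by either tool and 0 with an unadjusted p under 0.05.

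Of 38 lysosomal genes tested 13 were higher and 0 lower, beside 6.10% higher over all genes, with a median log2 change of 0.17. Several cathepsin genes were among those called. Ctsd, an aspartyl protease, had 265, 292 and 354 CPM in AppNLGF_p16KO and 177, 201 and 225 CPM in WT (log2 0.58 ± 0.08, adjusted p = 3.12e-04). Ctsz had log2 0.57 ± 0.08 (adjusted p = 2.16e-04) and Ctss, a microglial cathepsin, 0.55 ± 0.08 (adjusted p = 4.18e-04), and all 3 had groups apart. Ctsa, the protective protein of the lysosome, averaged 113 ± 6.34 CPM in AppNLGF_p16KO and 97.4 ± 6.03 CPM in WT (SD, n = 6 each, edgeR log2 0.21 ± 0.06, adjusted p = 0.0221). The list had 7 calls without library 21 and 21 without library 23, and Ctsa was not called without library 21 (adjusted p = 0.0712).

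TFEB, a regulator of lysosomal genes, binds the CLEAR motif, whose core is TCACGTGA. This motif, which reads the same on both strands, was sought in the 300 bases from 250 before to 50 after the RefSeq start of each gene (GRCm38.p6). It was found in 6 of 30 lysosomal members with a promoter in the table (20.0%), against 1.87% of the 13329 genes tested that had one. The called members with it were Ctsd and Ctsa, 2 of 11 (18.2%), so the share among called members was no higher than in the list. Their promoters are shown as those of the called members that hold the motif, with the motif in capitals, 5′ to 3′ on the gene's strand. The Ctsd window is at chr7:142387778-142388077 (minus strand) and that of Ctsa at chr2:164833523-164833822 (plus strand), where the motif occurs at 2 places.
Ctsd: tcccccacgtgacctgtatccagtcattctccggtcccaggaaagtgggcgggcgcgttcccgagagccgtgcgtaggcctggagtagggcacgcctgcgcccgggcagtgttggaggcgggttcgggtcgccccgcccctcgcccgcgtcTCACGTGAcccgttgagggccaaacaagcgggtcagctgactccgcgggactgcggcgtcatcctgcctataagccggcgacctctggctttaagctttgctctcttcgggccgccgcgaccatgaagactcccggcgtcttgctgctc
Ctsa: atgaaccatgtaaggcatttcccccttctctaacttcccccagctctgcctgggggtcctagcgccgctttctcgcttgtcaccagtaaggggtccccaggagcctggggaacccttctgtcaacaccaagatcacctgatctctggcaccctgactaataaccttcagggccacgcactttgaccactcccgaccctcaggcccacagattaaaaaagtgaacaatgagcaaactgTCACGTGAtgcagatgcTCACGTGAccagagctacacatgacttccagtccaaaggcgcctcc
A match describes the letters in this window and not binding. The PU.1 motif GAGGAAGT, for the regulator of microglial genes encoded by Spi1, was found on either strand in 0 of 14 called members of the plaque list with a promoter and in 3.35% of genes tested. The sterol motif TCACCCCAC was found in 0 of 5 called cholesterol genes and in 0.660% of genes tested.

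Among the astrocyte genes called, 1, Gfap, remained called without library 21. Gfap, the filament gene of reactive astrocytes (chromosome 11, 102887336 to 102900912), had 456, 527 and 737 CPM in AppNLGF_p16KO and 273, 349.8 and 364 CPM in WT, without overlap (log2 0.73 ± 0.09, adjusted p = 2.41e-05). In the reactive astrocyte list 2 of 23 were called, Gfap and Timp1, both higher, beside 6.10% higher over all genes (median log2 0.05). Timp1, a metalloprotease inhibitor gene with 13 to 49 reads in the AppNLGF_p16KO libraries and 3 to 21 in WT, overlapped and lost its call without library 21 (log2 1.37, adjusted p = 0.0917). General astrocyte genes had 3 higher and 2 lower of 14, beside 6.10% higher and 3.46% lower over all genes. Among them the membrane protein gene Mlc1 had log2 0.29 ± 0.07 (adjusted p = 0.0153) and the glutamate transporter gene Slc1a2 -0.17 ± 0.05 (adjusted p = 0.0440), and 0 of the 5 kept their call without library 21. Oligodendrocyte genes had 1 higher of 22, Olig1, beside 6.10% higher over all genes, and it was not called without library 21 (adjusted p = 0.0725). Their precursors had 0 of 10 called by edgeR, 3 with an unadjusted p under 0.05, and 2 called by DESeq2, 1 in each direction.

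Cdkn2b, the gene beside Cdkn2a that encodes the related inhibitor p15, had 0.730, 1.04 and 1.29 CPM in AppNLGF_p16KO and 0.457, 0.482 and 0.815 CPM in WT (log2 0.95 ± 0.23, adjusted p = 0.0144) and only WT library 6 reached into the AppNLGF_p16KO range, whose lowest library was 22. Without library 22 Cdkn2b had log2 1.04 (adjusted p = 0.0159). On the far side of Cdkn2a, Mtap, of methionine salvage, was not called (log2 -0.12 ± 0.09, adjusted p = 0.396).

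In the pathway that p16 restrains, 3 of 24 CDK inhibitors, D cyclins and Rb family genes were higher and 0 lower, beside 6.10% higher over all genes (median log2 0.02). The count was 1 without library 21 and 1 without library 22. Besides Cdkn2b they were the p19INK4d gene Cdkn2d (log2 0.26 ± 0.07, adjusted p = 0.0294) and Cdk4, a kinase that p16 inhibits (log2 0.20 ± 0.06, adjusted p = 0.0320), both with overlapping groups and no call without library 21. E2F targets had 1 higher of 26, the replication clamp gene Pcna (log2 0.25 ± 0.07, adjusted p = 0.0209), and a list median of 0.19. Targets of p53 had 1 higher of 24, the cell death gene Bax (log2 0.23 ± 0.07, adjusted p = 0.0411). The secretory genes of senescent cells had 2 higher of 28, Serpine2 and Timp1. Without library 21 the E2F, p53 and secretory lists had 0 calls by edgeR. With all libraries DESeq2 called 1, 2 and 2 of their members, and 7, 4 and 7 had an unadjusted p under 0.05.

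Several genes of chromosome 4, which carries Cdkn2a, were higher in AppNLGF_p16KO. Alad, the second enzyme of haem synthesis (chromosome 4, 62509169 to 62519918, 26.8 Mb from Cdkn2a), had 23.0, 36.9 and 39.7 CPM in AppNLGF_p16KO and 16.7, 18.2 and 18.6 CPM in WT, without overlap (log2 0.93 ± 0.11, adjusted p = 3.38e-05). Its medians were 19.3 CPM in AppNLGF and 35.2 CPM in p16KO. Hdhd3, a predicted hydrolase gene next to it, had 6.10, 9.64 and 11.4 CPM in AppNLGF_p16KO and 4.00, 4.72 and 6.14 CPM in WT, where only the end values cross (log2 0.90 ± 0.14, adjusted p = 5.89e-04). Tusc1, 4.05 Mb from Cdkn2a, had log2 0.59 ± 0.09 (adjusted p = 0.00104). Cyp2j13, a cytochrome P450 gene 6.77 Mb away, was at 0.0374 to 0.468 CPM in AppNLGF_p16KO and 0.0340 to 0.0732 CPM in WT (log2 2.53 ± 0.47, adjusted p = 0.00301), with library 22 inside the WT range. Library 22 was the lowest of AppNLGF_p16KO for all 4, and for Tusc1, at 6.98 CPM, it too was inside the WT range (5.63 to 7.05 CPM). These 4 remained called without library 21, and without library 22 (adjusted p = 3.92e-07 for Alad, 5.82e-05 for Hdhd3, 9.57e-05 for Tusc1 and 1.92e-04 for Cyp2j13). Library 22 was singled out after its values were seen to lie nearest to WT at these genes. Calls in the fit without it therefore add no support.

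Other genes of the same chromosome were lower. Frrs1l, which helps to assemble AMPA receptors, had 361, 395 and 505 CPM in AppNLGF_p16KO and 516, 549 and 584 CPM in WT (log2 -0.44 ± 0.08, adjusted p = 0.00221). Eqtn, a sperm membrane protein gene 5.63 Mb from Cdkn2a, had 0.0594, 0.156 and 0.412 CPM in AppNLGF_p16KO and 0.459, 0.709 and 0.859 CPM in WT, from 3 to 22 reads a library in AppNLGF_p16KO and 27 to 46 in WT (log2 -1.85 ± 0.35, adjusted p = 0.00351). Both had groups apart, and library 22 was the highest of AppNLGF_p16KO for both (log2 -0.51 for Frrs1l and -2.22 for Eqtn without it). Rnf20, a histone H2B ubiquitin ligase gene, had log2 -0.38 ± 0.06 (adjusted p = 0.00142), and Phf24, a regulator of GABA-B signalling, -0.35 ± 0.08 (adjusted p = 0.0153). In the windows around Cdkn2a, 13 of 70 genes within 10 Mb were called, 4 higher and 9 lower (18.6%, beside 9.56% over all genes), and 27 of 160 within 20 Mb (16.9%). Without library 22 the counts were 15 of 70 (21.4%) and 30 of 160 (18.8%), beside 5.93% over all genes. That library was picked for lying near WT at genes of these windows, so these counts are a description only. On the whole chromosome 132 of 1110 were called (11.9%). Within 10 Mb of App on chromosome 16 the count was 13 of 96 (13.5%). Linked strain differences around an allele and effects of the allele itself cannot be told apart in this design.

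Chromosome 17 had the highest share of calls, 115 of 914 genes (12.6%), a chromosome described after its values were seen. Between 20 and 40 Mb 76 of 456 were called (16.7%, 65 higher), and elsewhere on it 39 of 458 (8.52%). Several calls of very large size were copies, on other chromosomes, of genes in this stretch. Rps18-ps6, a copy of the ribosomal protein gene Rps18 on chromosome 13 (97760072 to 97760632), had 12.7, 12.9, 25.7, 13.7, 0 and 9.55 CPM in AppNLGF_p16KO libraries 18 to 23, against 0 to 0.0853 CPM in WT (adjusted p = 0.0288). Rps18 itself (chromosome 17, 33951999 to 33956001) had 11.8, 10.8, 4.63, 11.9, 16.6 and 8.97 CPM in AppNLGF_p16KO libraries 18 to 23, against 15.5 to 18.2 CPM in WT, without a call (adjusted p = 0.141). The library with the most reads in the copy had the fewest in the gene, and the library with none in the copy was within the WT range of the gene.

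The same opposition was seen for the proton pump subunit gene Atp6v0c (chromosome 17, 24163866 to 24169702) and its pseudogene Atp6v0c-ps2 on chromosome 6. The pseudogene had 0.234, 29.1, 30.3, 28.9, 0.0748 and 11.8 CPM in AppNLGF_p16KO libraries 18 to 23 and 0.107 to 0.183 CPM in WT (adjusted p = 0.0226). The gene had 89.5, 10.7, 9.54, 11.2, 101 and 51.9 CPM in AppNLGF_p16KO libraries 18 to 23 and 69.9 to 91.3 CPM in WT (adjusted p = 0.438). The pseudogene fell into low, middle and high levels, with libraries of AppNLGF (15 and 16, at 13.0 and 10.6 CPM) and p16KO (8 and 9, at 14.5 and 14.1 CPM, and 7 and 11, at 27.2 and 25.0 CPM) above WT as well. The copies Rnps1-ps, Hmga1b and Glo1-ps were at 8.45, 3.42 and 1.82 CPM in library 21, against at most 0.165 CPM in any WT library. Of their genes, Rnps1 was at 21.1 CPM in library 21, against 42.1 to 46.1 CPM in WT. Hmga1, at 6.15 CPM in library 21, was inside the WT range of 5.77 to 7.47 CPM. Glo1, at 91.9 CPM there, was above the WT range of 75.6 to 85.0 CPM. The Hmga1 and Glo1 pairs thus did not show the opposition in library 21. In AppNLGF_p16KO libraries 19, 20 and 23 Hmga1b was at 3.58, 4.65 and 2.16 CPM. Hmga1 was below its WT range in these libraries, at 1.505, 1.301 and 4.56 CPM. In the same libraries Glo1-ps was at 2.42, 4.81 and 2.01 CPM. Glo1 was at 87.1, 81.4 and 68.6 CPM, below its WT range in library 23 only. The submitters counted only uniquely aligned reads, so levels of near-identical copies are uncertain. None of these 5 copies was called without library 21 (adjusted p = 0.0582 to 0.0730). BC023719, an antisense transcript of the major histocompatibility region (chromosome 17, 36111426 to 36117121), had 5.70, 6.42, 11.3, 5.92, 0 and 4.35 CPM in AppNLGF_p16KO libraries 18 to 23, against 0 to 0.0183 CPM in WT (adjusted p = 0.0297, 0.0645 without library 21). Whether its reads were separated by strand from those of overlapping genes is not given in the sources used here. The class I gene H2-D1 nearby had 62.5, 50.6, 79.8, 67.2, 33.9 and 59.5 CPM in the same AppNLGF_p16KO libraries, against 23.7 to 33.1 CPM in WT (log2 1.02 ± 0.23, adjusted p = 0.0144), so library 22 was lowest for both. Aif1 lies in the same stretch, as do Tap1, Psmb8 and Hspa1b, and was highest in AppNLGF_p16KO library 20 (11.9 CPM) and p16KO library 7 (8.11 CPM), the libraries highest for BC023719 in their groups (11.3 and 11.6 CPM). H2-K1, another class I gene, was not called (log2 0.17 ± 0.09, adjusted p = 0.212). Of the 40 calls beyond 4-fold, 39 higher and 1 lower, 21 were pseudogenes or predicted genes and 11 lay on chromosome 17, which holds 4.71% of genes tested. The cause of these patterns was not tested.

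**Figure D3:**
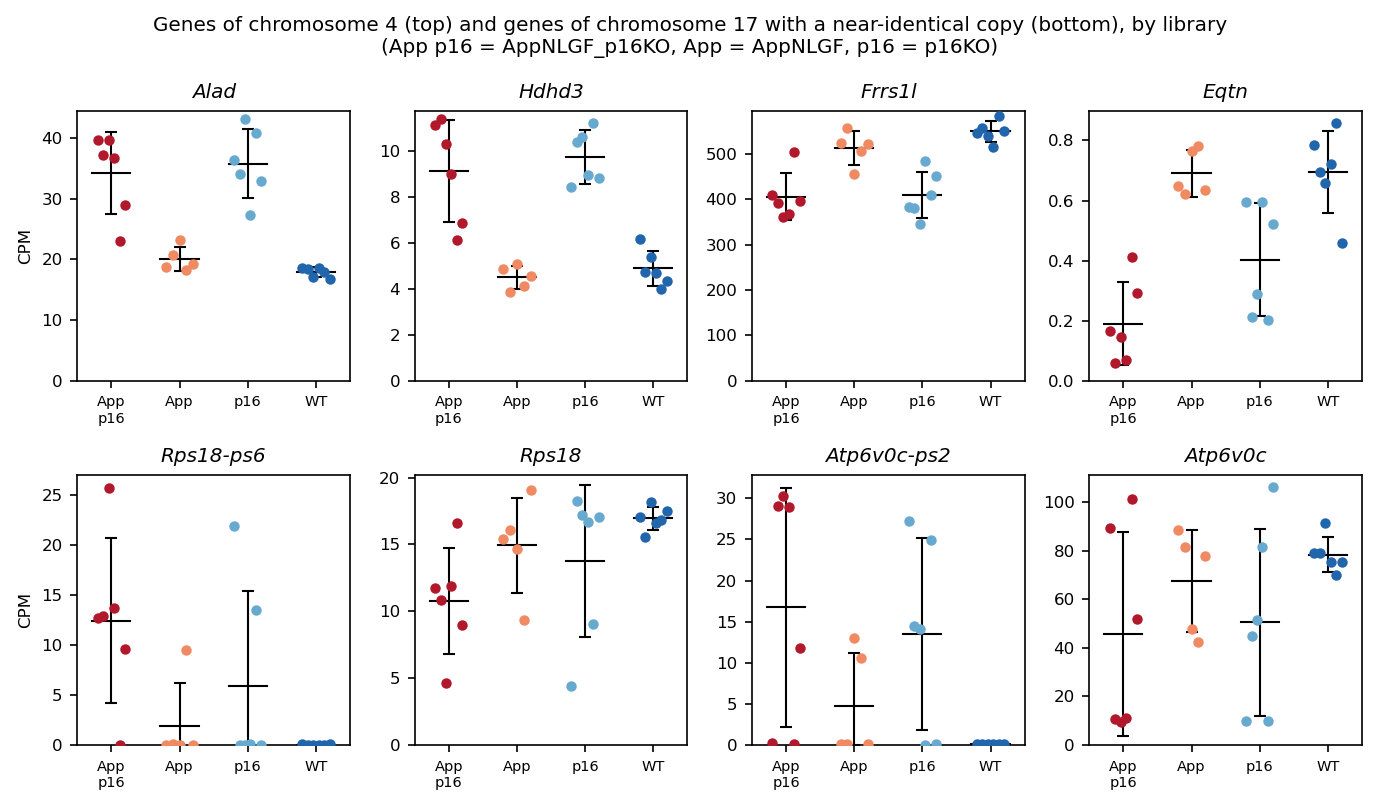
CPM in every library (points) with group mean and SD (lower bars end at 0) for 4 genes of chromosome 4 (top) and for 2 genes of chromosome 17 beside their copies (bottom), groups from left to right AppNLGF_p16KO, AppNLGF, p16KO and WT. Alad is at 23.0 to 39.7 CPM in AppNLGF_p16KO and 16.7 to 18.6 CPM in WT, and libraries high in Atp6v0c-ps2 (up to 30.3 CPM) are low in Atp6v0c (down to 9.54 CPM).

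Many nuclear genes of the respiratory chain were higher in AppNLGF_p16KO, each by a small amount. Of 73 tested, 45 were higher and 0 lower, beside 6.10% higher over all genes, with a median log2 change of 0.26 and calls from 0.22 to 0.55. Ndufa11, a complex I subunit gene, had 61.6, 66.6 and 86.9 CPM in AppNLGF_p16KO and 43.7, 47.6 and 50.5 CPM in WT (log2 0.55 ± 0.09, adjusted p = 0.00142). Uqcrq, of complex III, had 106, 120.5 and 160.0 CPM in AppNLGF_p16KO and 84.5, 88.5 and 96.4 CPM in WT (log2 0.51 ± 0.08, adjusted p = 0.00142). Cox6a1, of complex IV, had log2 0.38 ± 0.06 (adjusted p = 0.00142). All 3 had groups apart. The mitochondrial genes of the same chain had 0 of 7 called by edgeR, 3 with an unadjusted p under 0.05, 2 called by DESeq2 (1 in each direction), and a median of -0.11. The nuclear list had 24 higher without library 21, 61 without library 23 and 35 when trends with length and GC content were removed. By library its mean relative to WT was 0.20 to 0.42 in AppNLGF_p16KO libraries 18 to 22, -0.01 in library 23 and -0.06 to 0.12 in WT, where library 1 was highest.

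Of 79 cytosolic ribosomal protein genes 28 were higher and 0 lower, beside 6.10% higher over all genes. The median log2 change was 0.22, with 10 members below 0. Rplp1, of the ribosomal stalk, had 280.3, 305 and 392 CPM in AppNLGF_p16KO and 196, 212 and 247 CPM in WT (log2 0.59 ± 0.10, adjusted p = 0.00126). Rpl37a had log2 0.54 ± 0.09 (adjusted p = 0.00104). Members ranged from -0.80 in Rps2, not called, to 1.03 in Fau, not called, and several of these genes have near-identical copies. Without library 21 the list had 15 higher, beside 1.90% over all genes, and with length and GC trends removed 22, beside 3.91%.

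Both lists are made of short transcripts (median length 607 and 628.5 bases), and length moved with the calls over all genes. Genes called higher had a median transcript length of 873.5 bases, genes called lower 2344.5 and genes not called 1513. With the genes split by length into 5 bins of equal number, 10.6% were higher and 1.67% lower in the shortest bin, and 0.978% were higher and 7.00% lower in the longest. Spearman's rho between length and log2 change over the genes tested was -0.25, as a description of genes that share these libraries. The slope of a library's deviations on the log2 of length was negative in AppNLGF_p16KO libraries 18 to 22 (lowest -0.063, library 21) and 0.013 in library 23, against 0.007 to 0.051 in WT. With length and GC trends removed, 1243 genes were called (6.40%), 759 higher (3.91%) and 484 lower (2.49%), and 909 of them were among the 1857. Slopes ran from -0.011 to 0.046 in AppNLGF and from -0.035 to 0.006 in p16KO. Whether length has a part in these results beyond that fit was not tested.

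**Figure D4:**
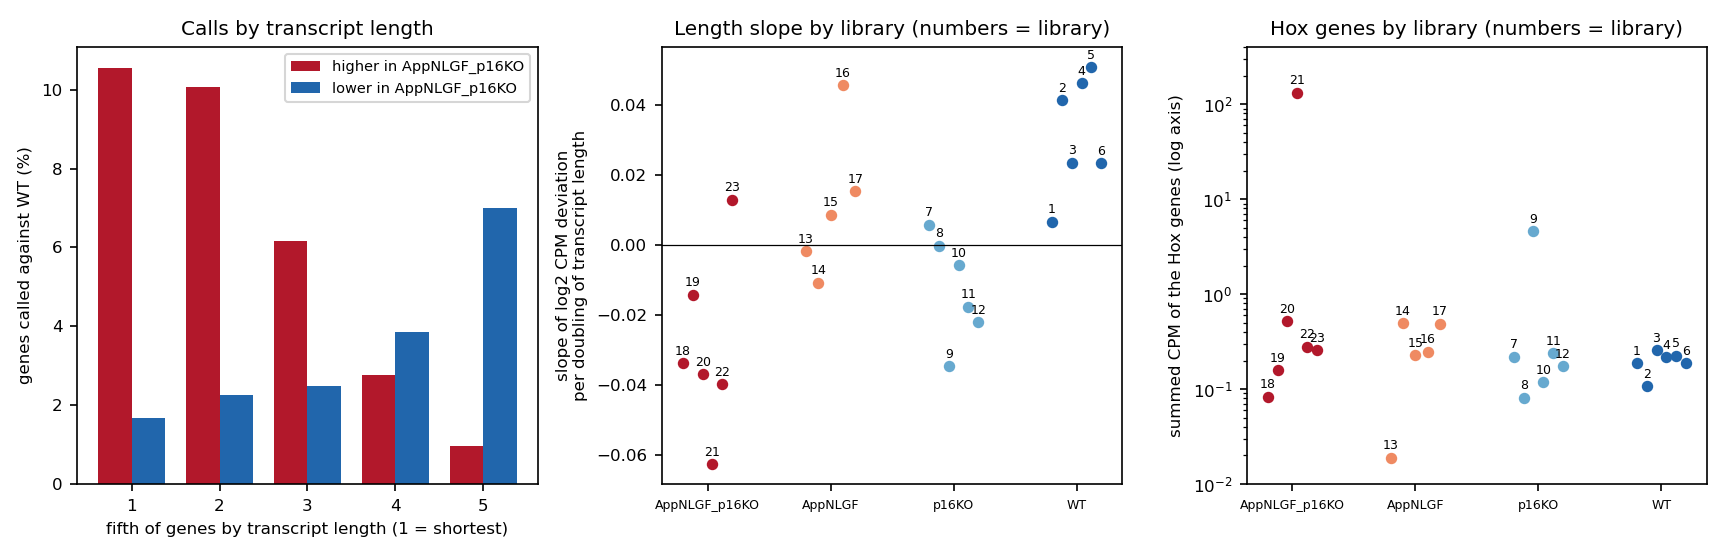
Left, percentage of genes called higher or lower in AppNLGF_p16KO against WT in 5 bins of transcript length. Middle, slope of each library's log2 CPM deviations on the log2 of length, which is lowest in AppNLGF_p16KO 21 (-0.063) and positive in every WT library (0.007 to 0.051). Right, summed CPM of the Hox genes by library on a log axis, with AppNLGF_p16KO 21 at 131.7 CPM.

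Of 24 cholesterol synthesis genes 10 were higher and 0 lower, beside 6.10% higher over all genes, with a median log2 change of 0.27. Mvk, of the mevalonate pathway, had 21.3, 22.0 and 27.0 CPM in AppNLGF_p16KO and 16.1, 17.7 and 22.1 CPM in WT (log2 0.36 ± 0.08, adjusted p = 0.00758). Fdps had log2 0.58 ± 0.13 (adjusted p = 0.0111) and the squalene synthase gene Fdft1 0.41 ± 0.10 (adjusted p = 0.0125), all with overlapping groups. The list had 3 calls without library 21 and 19 without library 23, and its mean relative to WT ran from -0.04 (library 23) to 0.39 (library 21) in AppNLGF_p16KO and from -0.12 to 0.21 in WT.

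Haem and iron genes had 6 higher and 0 lower of 20, beside 6.10% higher over all genes, and 5 higher without library 21. Hdhd3, a predicted hydrolase gene, is on this list as the neighbour of Alad, so its call adds no separate locus. Besides Alad and Hdhd3, the ferritin light chain gene Ftl1 had 21.5, 22.9 and 27.9 CPM in AppNLGF_p16KO and 15.4, 16.0 and 18.9 CPM in WT (log2 0.54 ± 0.09, adjusted p = 0.00192). The haem oxygenase gene Hmox1, which breaks haem down, had log2 0.49 ± 0.10 (adjusted p = 0.00684). Blood cannot be read from these genes alone, and Hbb-bs, of red cells, was not called (log2 -0.03 ± 0.21, adjusted p = 0.952).

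Some genes that follow neuronal activity were lower. Of 35 immediate early genes 0 were higher and 5 lower, beside 3.46% lower over all genes, with a median log2 change of -0.18. Their transcripts are long, with a median of 2405.5 bases, and 4 were lower with length and GC trends removed. Nr4a3, an orphan nuclear receptor gene, had 72.3, 80.8 and 90.1 CPM in AppNLGF_p16KO and 94.2, 103 and 118 CPM in WT, without overlap (log2 -0.39 ± 0.07, adjusted p = 0.00205). Egr1 had 71.2, 82.1 and 107 CPM in AppNLGF_p16KO and 104, 119 and 134 CPM in WT (log2 -0.48 ± 0.11, adjusted p = 0.0118), with a narrow overlap. Fosl2, Egr3 and Homer1 were the other calls. Without library 21 the count was 2, beside 0.455% lower over all genes, with Nr4a3 (adjusted p = 0.00806) and Egr1 (adjusted p = 0.0372) called. By library the mean of the list relative to WT was -0.33 in AppNLGF_p16KO 23, -0.15 to -0.05 in the other AppNLGF_p16KO libraries and -0.05 to 0.04 in WT.

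Of 32 glutamate receptor genes 4 were lower and 0 higher, beside 3.46% lower over all genes (median log2 -0.10). The count was 1 without library 21 and 1 without library 22. Besides Frrs1l they were the NMDA receptor subunits Grin2b, with 227, 415 and 564 CPM in AppNLGF_p16KO and 439, 609 and 749 CPM in WT (log2 -0.57 ± 0.16, adjusted p = 0.0320), and Grin2a (log2 -0.32 ± 0.10, adjusted p = 0.0404), and the AMPA receptor subunit Gria2 (log2 -0.38 ± 0.11, adjusted p = 0.0382). These 3 overlapped and were not called without library 21 (adjusted p = 0.0645, 0.112 and 0.0774). Members of this list are long, with a median of 3088 bases. With length and GC trends removed 5 were lower and 0 higher. Grin2b was called in that fit (adjusted p = 0.0453), and Gria2 and Grin2a were not (adjusted p = 0.0619 and 0.144). The mean of the list relative to WT was 0.08 in AppNLGF_p16KO 23, -0.33 to -0.08 in the other AppNLGF_p16KO libraries and -0.16 to 0.12 in WT. Presynaptic genes had 1 higher and 2 lower of 29, GABA receptor and interneuron genes 1 higher (Sst) and 1 lower (Phf24) of 28. Over all genes 6.10% were higher and 3.46% lower. Without library 21 presynaptic genes had 0 calls, Phf24 was called (adjusted p = 0.0394) and Sst was not (adjusted p = 0.0540). Microtubule genes had 7 higher and 0 lower of 26, beside 6.10% higher over all genes, while the list median was -0.08. The calls were led by Stmn3 (log2 0.36 ± 0.08, adjusted p = 0.00699) and Tuba1b (log2 0.51 ± 0.11, adjusted p = 0.0110). This list had 3 higher and 0 lower without library 21, 8 and 8 without library 23, and 8 and 3 by DESeq2. At an unadjusted p under 0.05, 8 were higher and 7 lower. Granule cell genes had 0 of 14 called by edgeR, 5 with an unadjusted p under 0.05 and 2 lower by DESeq2 (median log2 -0.21). Pyramidal cell genes had 1 higher of 19, beside 6.10% higher over all genes, and 0 without library 21.

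Markers of tissues around the hippocampus had 0 or 1 call a list, and their levels varied within the groups. Over all genes 6.10% were higher and 3.46% lower, so 1 call in lists of this size says little about the tissue. Choroid plexus genes summed to 649 to 4115 CPM in AppNLGF_p16KO and 396 to 5251 CPM in WT, with 0 of 16 called by edgeR or by DESeq2 and 0 with an unadjusted p under 0.05. Meningeal and fibroblast genes had 0 of 17 called by either tool and 1 with an unadjusted p under 0.05, and striatal and thalamic genes 0 of 17 called by either and 1 with an unadjusted p under 0.05. Neocortical genes had 1 lower of 14, the transcription factor gene Etv1 (log2 -0.27 ± 0.08, adjusted p = 0.0446, 0.135 without library 21). Ependymal genes had 1 lower of 14, the cilium gene Hydin, with 0.542, 0.642 and 1.68 CPM in AppNLGF_p16KO and 1.04, 1.48 and 2.47 CPM in WT (log2 -0.95 ± 0.25, adjusted p = 0.0202, 0.0610 without library 21). Vessel genes had 1 lower of 20, the smooth muscle myosin gene Myh11 (log2 -0.94 ± 0.28, adjusted p = 0.0363, 0.100 without library 21), and matrix genes 1 lower of 27, the laminin gene Lama2 (log2 -0.31 ± 0.08, adjusted p = 0.0190, 0.0623 without library 21). Clock genes had 0 of 21 called by edgeR or by DESeq2 and 4 with an unadjusted p under 0.05. Chaperone genes had 3 higher and 1 lower of 27, among them the inducible Hsp70 gene Hspa1b (log2 0.61 ± 0.16, adjusted p = 0.0253), and glucocorticoid-induced genes 1 lower of 21, Klf9 (log2 -0.29 ± 0.08, adjusted p = 0.0280). Neither Hspa1b nor Klf9 was called without library 21 (adjusted p = 0.0879 and 0.0812), and the chaperone and glucocorticoid lists then had 0 calls.

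Some genes of App processing and Alzheimer risk were called, in both directions. App had 1457, 1543 and 1643 CPM in AppNLGF_p16KO and 1616, 1659 and 1752 CPM in WT, a difference that was not called (log2 -0.11 ± 0.04, adjusted p = 0.108). It was called without library 23 (adjusted p = 0.0376). Sorl1, which sorts App away from the amyloid pathway, had 367, 373 and 423 CPM in AppNLGF_p16KO and 438, 471 and 514 CPM in WT, without overlap (log2 -0.29 ± 0.06, adjusted p = 0.00446). Cd2ap, a scaffold gene of actin and endocytosis, had 17.5, 24.6 and 26.1 CPM in AppNLGF_p16KO and 25.8, 31.0 and 33.6 CPM in WT (log2 -0.37 ± 0.08, adjusted p = 0.00612). Clu, the clusterin gene, had log2 0.20 ± 0.06 (adjusted p = 0.0322, 0.0909 without library 21). In the list of risk genes outside microglia 2 were higher and 3 lower of 16. That of App and its processing had 2 higher and 1 lower of 19, beside 6.10% higher and 3.46% lower over all genes. Without library 21 the risk list had 1 higher and 2 lower and the processing list 0 higher and 1 lower. Over all genes 1.90% were then higher and 0.455% lower.

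The other falling genes with the smallest p included regulators of signalling and transcription. Lats1, a kinase of the Hippo pathway, had 41.9, 48.3 and 51.1 CPM in AppNLGF_p16KO and 55.2, 58.3 and 62.1 CPM in WT (log2 -0.29 ± 0.05, adjusted p = 0.00397). Gatad2b, a subunit of the NuRD repressor complex, had 86.1, 97.5 and 112 CPM in AppNLGF_p16KO and 113, 122 and 133 CPM in WT (log2 -0.30 ± 0.06, adjusted p = 0.00564). Neither overlapped. Usp29, Zfp110 and Zfp382, of chromosome 7, had log2 changes of -0.39 ± 0.08, -0.35 ± 0.07 and -0.51 ± 0.11 (adjusted p = 0.00670 to 0.00747), with groups apart. The stress kinase gene Map3k5 (log2 -0.30 ± 0.05) overlapped by its end values. All of these were called without library 21.

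**Figure D5:**
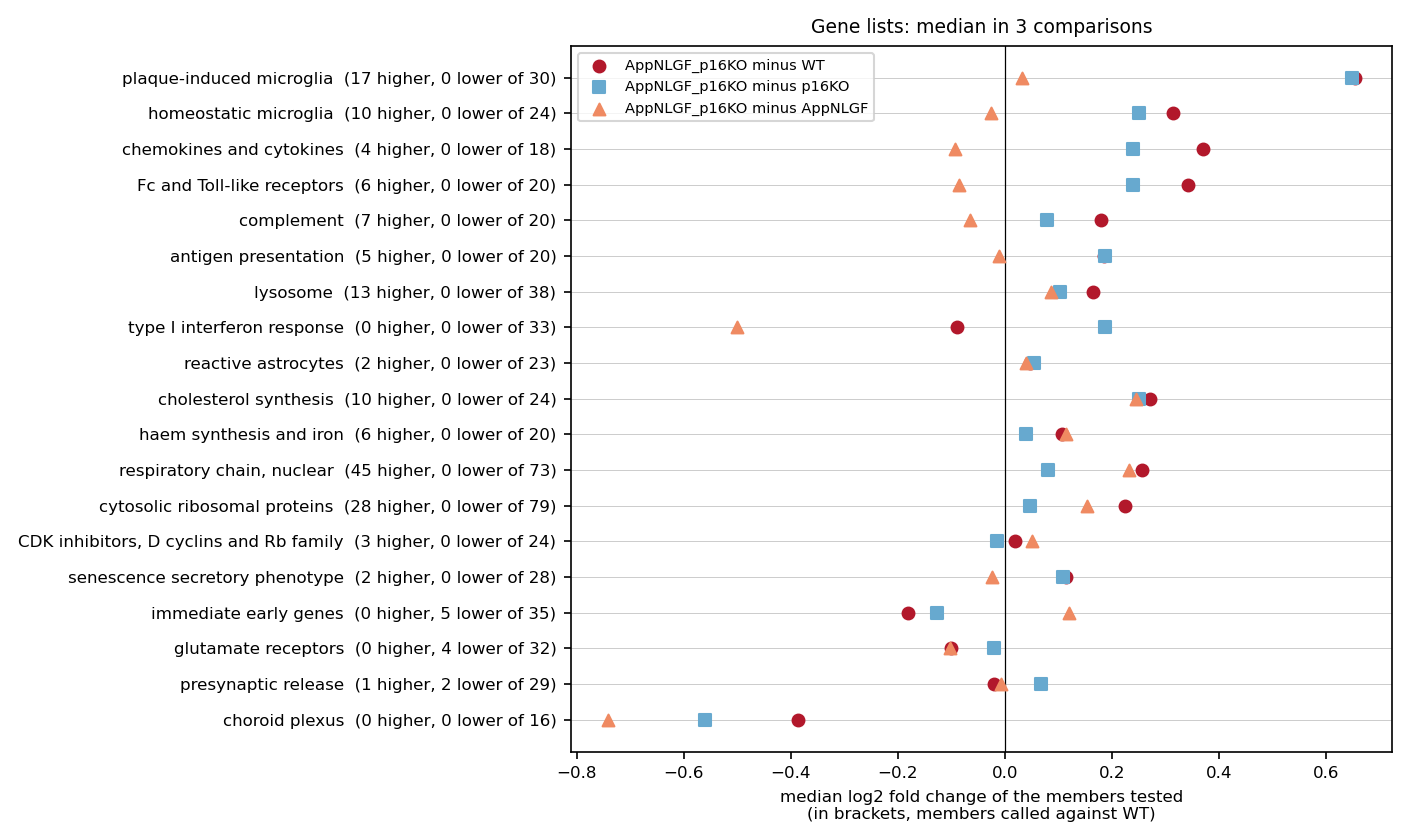
Median log2 fold change of the members of each gene list in AppNLGF_p16KO against WT, AppNLGF and p16KO, which share the AppNLGF_p16KO libraries. Plaque-induced microglial genes lie at 0.65 against WT, 0.03 against AppNLGF and 0.65 against p16KO, and nuclear respiratory chain genes at 0.26 against WT, 0.23 against AppNLGF and 0.08 against p16KO.

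Set against the single mutants, AppNLGF_p16KO had few calls. Against AppNLGF 6 genes were called (0.0309%): Alad, Hdhd3, Tusc1, Gm13453 and Gm20075 were higher (0.0257%) and Cd2ap lower (0.00515%). Library 22 was nearest to WT among the AppNLGF_p16KO libraries for the 5 that were higher, and without it their adjusted p against AppNLGF was 1.59e-05 to 7.15e-04. It was singled out for that nearness, so the fit without it adds no support. An unadjusted p under 0.05 was found for 4570 genes, DESeq2 called 434, and edgeR called 4156 without library 23, 2 without AppNLGF 16 and 21 without AppNLGF_p16KO 22. Against p16KO 48 were called (0.247%), 43 higher (0.221%) and 5 lower (0.0257%). These comparisons share the AppNLGF_p16KO libraries, so the values are set side by side. Cst7 differed from p16KO by log2 5.12 (adjusted p = 2.82e-09) and from AppNLGF by -0.35 (adjusted p = 0.424). Alad differed from AppNLGF by 0.77 (adjusted p = 0.00771) and from p16KO by -0.07 (adjusted p = 0.913). The nuclear respiratory chain list had no call against either single mutant in edgeR, with medians of 0.23 against AppNLGF and 0.08 against p16KO. The interferon list had a median of -0.50 against AppNLGF and 0.19 against p16KO, with no call by edgeR in either. A p that misses the threshold does not show that groups were alike. The genes lower than in p16KO were Il1r1, Mns1, Kdm7a, Dnajb5 and Rnf19a, of which Il1r1, the interleukin 1 receptor gene, had medians of 16.1 CPM in AppNLGF_p16KO, 23.6 CPM in p16KO and 19.0 CPM in WT (log2 -0.65 against p16KO, adjusted p = 0.0372).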

How the data were processed

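The deposited table holds raw counts of reads per gene for 37173 genes in 23 libraries. Per the series' design text the authors aligned reads to GRCm38 with STAR and counted only uniquely aligned reads. Per the labels' protocols the libraries came from a stranded poly-A kit and were read from 1 end. The submitters' processing notes name cutadapt 4.2, Bowtie2 2.3.5, STAR 2.7.10b and DESeq2 1.45.3, and the builds GRCm38 and mm39. Of 37060 genes whose coordinates could be compared, 36795 were identical to GENCODE M21 on GRCm38, so coordinates are given on that build. Counts were filtered with filterByExpr (minimum count 10), which left 19423 genes, scaled by TMM, and tested with the robust quasi-likelihood F test of edgeR 4.0.16 (R 4.3.3, limma 3.58.1) in 1 model of all 23 libraries, with Benjamini-Hochberg adjustment over all genes tested and a threshold of 0.05. A gene past it is called. The biological coefficient of variation was 15.8%. Errors of log2 changes are standard errors. Named genes are the 15 higher and 15 lower genes with the smallest p (no predicted genes, none of chromosome Y, no Xist), up to 4 called members of each list or 1 to 2 abundant ones where none was called, Cdkn2a, Cdkn2b, Mtap and App, up to 8 called genes on chromosomes 4 and 16, and, against the single mutants, 5 in each direction or all where under 15 were called. Other genes were chosen after their values were seen. Some genes the rule names are not reported here. The comparison and the gene lists were chosen with earlier results of these data known. The method was tested on simulated data. Alternatives were DESeq2 1.42.0, other scalings and filters, a surrogate variable (sva 3.50.0), length and GC trends, and libraries left out.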

Additional observations from a re-analysis of the deposited data

Results flagged for a closer look

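In 17 of 202 groups of 6 libraries, over the named genes and lists, 1 library lay far from the others of its group, and chance alone flags about 1 in 20 groups. The measure is the gap to the nearest library over the range of the group, with a limit of 0.625. WT library 1 gave 6 of the 17: it was lowest for Gfap (0.6304) and highest for Mlc1 (0.6503), Pcna (0.6362), Mvk (0.6944), Fdft1 (0.6850) and Cox6a1 (0.7306). WT library 6 was highest for Ccl3 (0.7535) and Cdkn2b (0.8164). AppNLGF_p16KO library 23 was lowest for Pcna (0.6260) and for the mean of the immediate early genes (0.6707), and highest for the cilium gene Hydin (0.8677). AppNLGF_p16KO library 22 was highest for Frrs1l (0.6624) and Bax (0.6799), library 19 for Arl11 (0.6374) and Timp1 (0.6617), library 20 for Aif1 (0.7770) and library 21 for Tuba1b (0.6657).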

How the results depend on the processing

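The count of 1857 genes against WT was 1072 with no count filter, 604 with the groups compared alone, 456 with the library past the distance limit (21) left out and 5204 with AppNLGF_p16KO 23 and WT 1 left out, a setting chosen after seeing the data. Leaving out 1 library each gave 456 to 4456. DESeq2 gave 2646, with 53.6% of calls higher against 63.8% in edgeR. With library 21 left out 80.7% were higher. The count of 6 against AppNLGF was 3 with 15 reads in at least 90% of libraries, 17 with no filter, 0 with the groups alone and 434 by DESeq2, and 2 to 4156 leaving out 1 library each (without AppNLGF 14 or 15 and AppNLGF_p16KO 18 or 20 it was 3, without WT 1 it was 10). The count of 48 against p16KO was 19 with the groups alone, 29 without the library past the distance limit and 101 by DESeq2, and 29 (without p16KO 11 or AppNLGF_p16KO 21) to 61 leaving out 1 library each, with 31 without p16KO 12. The Cdkn2a difference of 0.0265 CPM was 0.0120 to 0.0419 CPM leaving out 1 library each. The cause of these shifts was not tested. Of the 143 named genes 120 were called against WT, 75 of them in all alternatives, and 0 reversed. Named genes were chosen largely for a small p. Over all 1857 calls, 346 were called in each of the 37 fits that tested them. No paired analysis was possible because the groups share no replicate numbers. Depth limits genes of few reads such as Cdkn2a, with at most 8 in any of the 12 libraries.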
